A study of Mus musculus with 6 samples.

Results

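A set of 37 mouse genes whose products drive or carry out mitosis was followed in bone marrow-derived macrophages (BMDMs), in which the mechanically gated cation channel Piezo1 had been knocked down. Earlier results of these data were known when the genes were chosen. The genes were listed by symbol, by a rule that uses no measured value, and matched to the Ensembl identifiers of the deposited matrix. All 37 were found among its 55401 genes, and all 37 were among the 15959 genes abundant enough to be tested. BMDMs are primary macrophages grown from bone marrow, here of C57BL/6 mice. The siNC group received a negative control siRNA and the siPiezo1 group an siRNA against Piezo1, each with 3 libraries of poly(A) RNA, and the cells of both groups were stretched mechanically for 4 h. The study asked how Piezo1 promotes macrophage proliferation under mechanical stimuli, and its title names Ccnd1, which encodes the G1 cyclin D1. Unstretched cells were not analysed here. The labels do not say whether the 3 libraries of a group came from separate animals or cultures, so p-values measure the spread between these libraries, which may be technical.

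Entry into mitosis is driven by CDK1 bound to cyclin B, with the Polo-like and Aurora kinases, and the spindle checkpoint then holds cells back until every kinetochore is attached to the spindle. The anaphase-promoting complex, activated by CDC20, ends mitosis by marking securin and cyclin B for destruction, after which centralspindlin and its partners organise the cleavage of the cell. Transcripts of these genes accumulate in G2 and M phase and are low in cells that do not divide. In a bulk culture their level therefore follows the share of dividing cells as well as the level per cell, and fewer dividing cells and less RNA per cell cannot be told apart in such libraries.

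The target of the siRNA, Piezo1, had 180, 285 and 189 CPM in siNC 1, 2 and 3 and 111, 109 and 113 CPM in siPiezo1 1, 2 and 3, where CPM are estimated counts scaled by the library total. Every siPiezo1 library lay below every siNC library. For Piezo1 the log2 fold change came to -0.97 ± 0.18 (SE; adjusted p = 0.744, edgeR; 0.000982, DESeq2) and -0.73 ± 0.057 without siNC 2 (adjusted p = 0.00245, edgeR). The library totals were 61086684 to 75052745 estimated counts, which stood for about 16.2 to 19.96 M fragments. The least abundant mitosis gene in any library, Ttk in siNC 3, still rested on about 83 fragments. One library, siNC 2, stood apart: across all tested genes, log2 CPM correlated at 0.965 to 0.975 between siNC 2 and the other libraries and at 0.984 to 0.989 among those others.

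In the comparison of all 6 libraries, no mitosis gene passed the test for a difference between siPiezo1 and siNC. The 37 log2 fold changes (siPiezo1 against siNC) had a median of 0.087, and 26 of them lay above 0, against a median of -0.011 and 48% above 0 over all tested genes. In the quasi-likelihood test of edgeR, with p-values adjusted by Benjamini-Hochberg over all tested genes, 0 of 37 passed an adjusted p of 0.05 in either direction, where 0% of all tested genes passed as higher and 0.00627% as lower. At an unadjusted p under 0.05 the count was again 0 of 37, against 2.52% of all tested genes higher and 2.41% lower, and DESeq2 and limma-voom likewise placed 0 of the 37 past an adjusted p of 0.05, where DESeq2 called 0.288% of all tested genes higher and 0.263% lower. Adjusted p in the edgeR fit ran from 0.978 to 0.999. Limma-voom with library quality weights, which lets single libraries count for less, gave a median of 0.49 on the same 6 libraries, with 35 of 37 above 0. It called 0 of 37, against 0.00627% of all tested genes higher and 0.0188% lower, and placed 15 higher and 0 lower at an unadjusted p under 0.05, against 6.47% and 5.51% of all tested genes. In none of the 37 genes did the groups separate, while 6.24% of all tested genes had every siPiezo1 library above every siNC library and 5.65% had the reverse.

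Behind the group means was a large spread among the siNC libraries. The CPM of the 37 genes summed to 843, 1864 and 855 in siNC 1, 2 and 3, and to 980, 1269 and 1478 in siPiezo1 1, 2 and 3. Both groups thus had similar means, 1188 ± 586 CPM for siNC against 1242 ± 250 CPM for siPiezo1 (SD, n = 3), but all 3 siPiezo1 libraries lay above siNC 1 and 3 and below siNC 2. Gene by gene, siNC 2 held the highest level of the 6 libraries in 33 of 37 mitosis genes, which was so for 28.8% of all tested genes. It lay more than 2-fold above the mean of siNC 1 and 3 in 26 of 37, against 11.4% of all tested genes. Its ratio to that mean ran from 0.772 for Pttg1 to 3.09 for Ube2c, with a median of 2.17. In 35 of 37 genes the siPiezo1 mean lay between the mean of siNC 1 and 3 and siNC 2, an arrangement found in 25.4% of all tested genes.

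**Figure D1:**
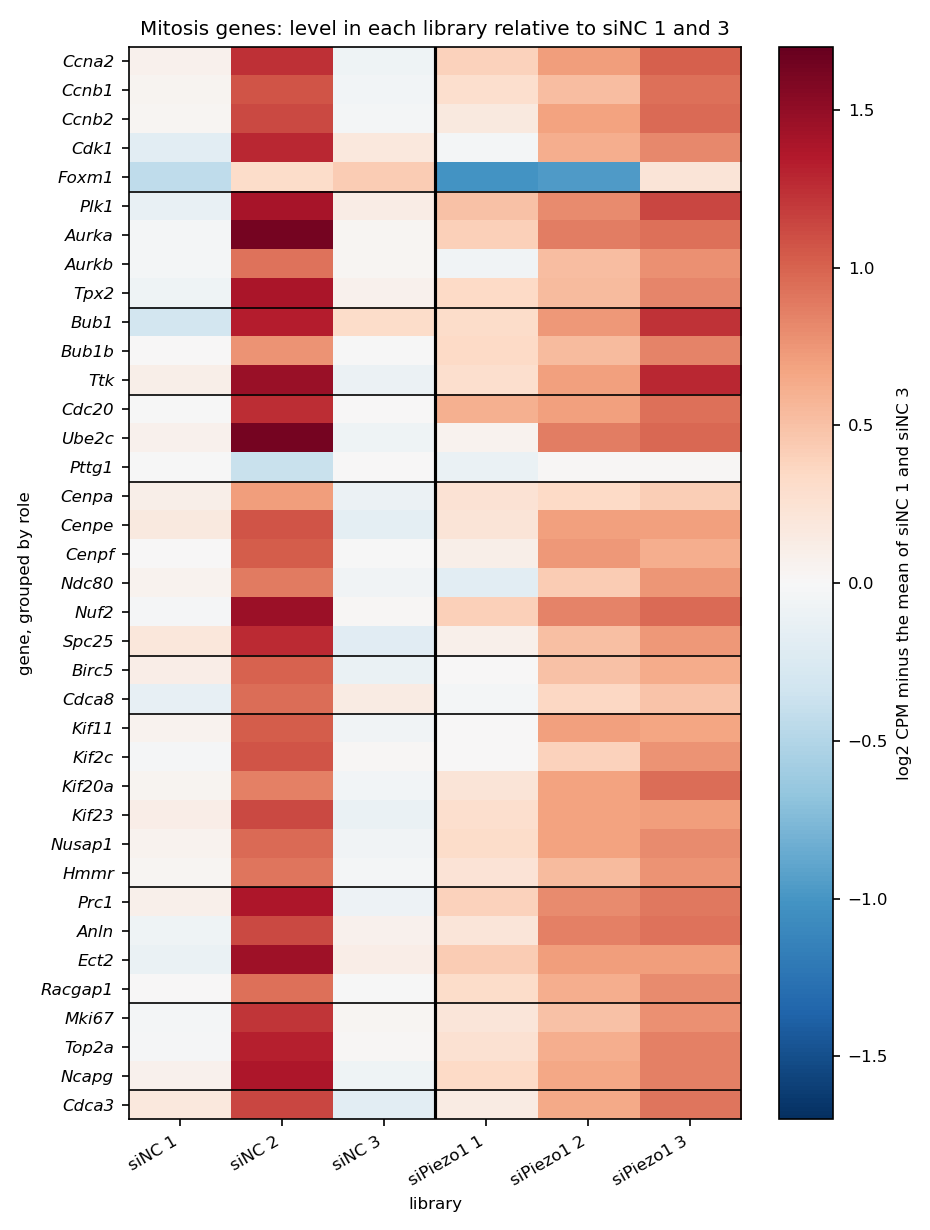
Log2 ratio of each library's CPM to the mean CPM of siNC 1 and 3, for the 37 mitosis genes (rows, grouped by role) in the 6 libraries (columns). The siNC 2 column is high in nearly every row, with a median of 1.12, siPiezo1 1, 2 and 3 have medians of 0.23, 0.66 and 0.82, and Foxm1 and Pttg1 depart from the other rows.

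Since siNC 2 stood apart, the fold changes of the 37 genes, singly and as a list, are also given without it. The fit without siNC 2 compares 2 siNC with 3 siPiezo1 libraries over the same 15959 genes. There the median log2 fold change of the 37 genes was 0.59, and 35 of 37 lay above 0, against a median of 0.0053 and 50.77% above 0 over all tested genes. No mitosis gene passed an adjusted p of 0.05 in edgeR's quasi-likelihood test, where 0.664% of all tested genes were called higher and 0.451% lower, and the smallest adjusted p was 0.0598. At an unadjusted p under 0.05, 26 of 37 were higher and 0 lower, against 7.69% of all tested genes higher and 6.66% lower. All 3 siPiezo1 libraries lay above siNC 1 and 3 in 25 of 37 mitosis genes, against 16.9% of all tested genes, and below both in 0 of 37, against 16.4%.

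The call depended on the tool once siNC 2 was left out. DESeq2 without siNC 2 called 18 of the 37 higher and 0 lower at an adjusted p of 0.05, where it called 3.79% of all tested genes higher and 2.93% lower. The 18 were Ccna2, Ccnb1, Plk1, Aurka, Tpx2, Bub1b, Cdc20, Nuf2, Kif20a, Kif23, Nusap1, Prc1, Anln, Ect2, Racgap1, Mki67, Top2a and Ncapg. Limma-voom without siNC 2 called 0 of 37, against 0.313% of all tested genes called higher and 0.407% lower. It placed 22 higher and 0 lower at an unadjusted p under 0.05, against 7.03% and 7.21% of all tested genes. Leaving out siNC 2 made the fold change larger in 36 of 37 genes and its SE smaller in 36 of 37, and the median SE moved from 0.35 to 0.18 on the log2 scale. No other library moved the median log2 fold change as far. Without siNC 1, siNC 3, siPiezo1 1, siPiezo1 2 and siPiezo1 3 in turn, it was -0.092, -0.13, 0.24, 0.039 and -0.036. The sign of most genes did turn with the library left out, with 7, 8, 36, 22 and 14 of 37 above 0 in these fits.

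**Figure D2:**
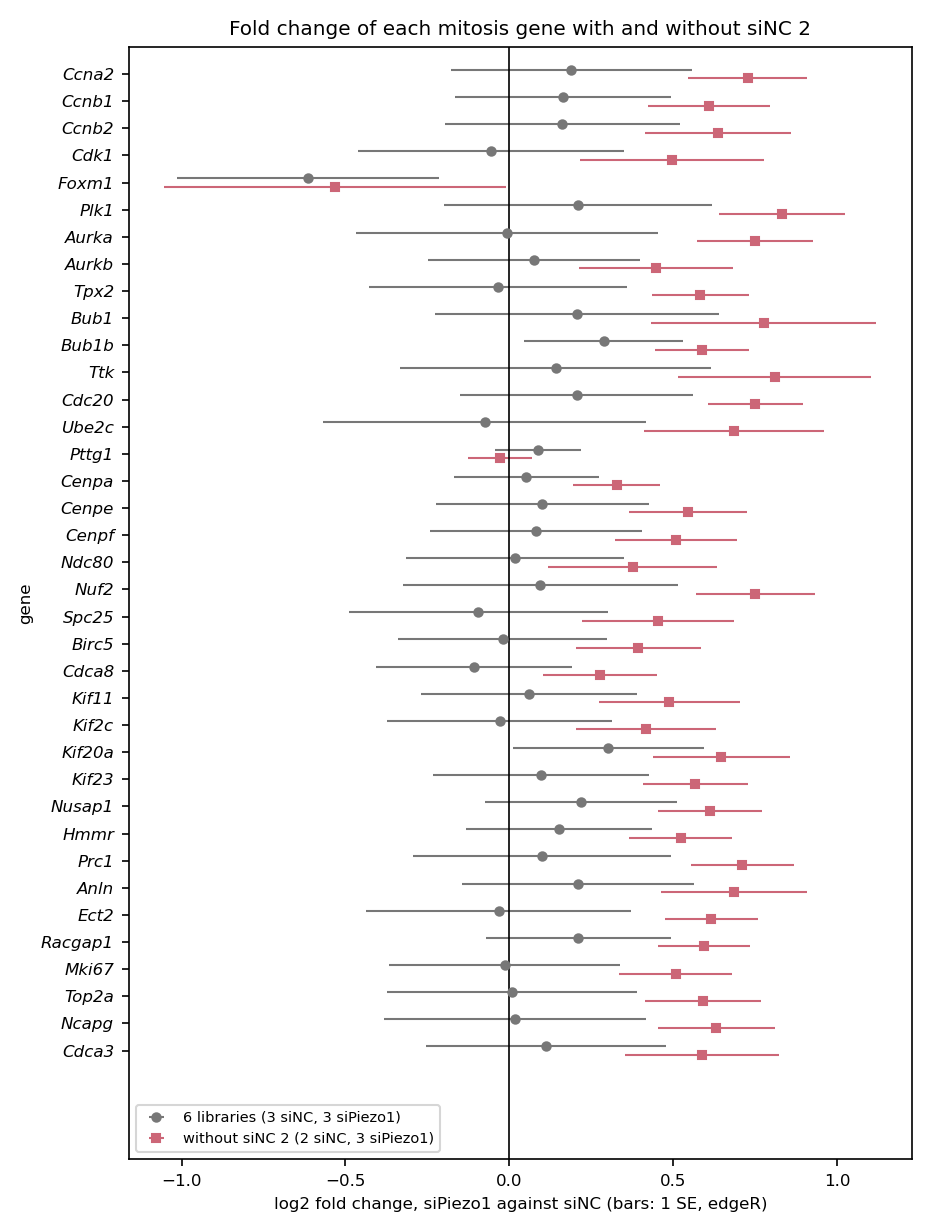
Log2 fold change of each mitosis gene, siPiezo1 against siNC, with 1 SE on either side, from edgeR on all 6 libraries (grey circles) and without siNC 2 (red squares). The grey points scatter about 0 between -0.61 and 0.30, and the red points lie between 0.28 and 0.83 except for Foxm1 and Pttg1.

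**Figure D3:**
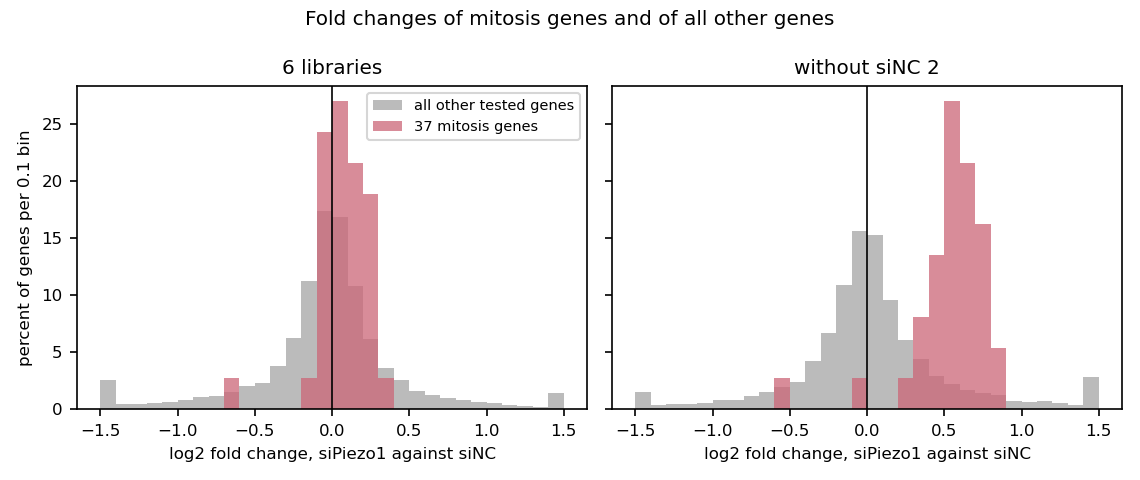
Distribution of log2 fold changes (siPiezo1 against siNC) of the 37 mitosis genes and of all other tested genes, as percent of genes per bin of 0.1, on all 6 libraries and without siNC 2. Values beyond the ends of the axis are placed in the end bins. The mitosis genes have a median of 0.087 with all libraries and of 0.59 without siNC 2, while the other genes are centred near 0 in both panels.

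The libraries within siPiezo1 differed too. Expressed against the mean of siNC 1 and 3, the median log2 ratio of the 37 genes was 0.23 in siPiezo1 1, 0.66 in siPiezo1 2 and 0.82 in siPiezo1 3. SiPiezo1 1 was the lowest and siPiezo1 3 the highest of the siPiezo1 libraries in 33 of 37 genes with siPiezo1 2 between them, an order found in 17.6% of all tested genes. SiPiezo1 3 exceeded siPiezo1 1 in 37 of 37, by 1.10-fold to 2.37-fold with a median of 1.51-fold, where 50% of all tested genes had the higher value in siPiezo1 3. The 3 libraries are replicates, and the labels give their numbers no further meaning. The mean siPiezo1 level was 1.51-fold that of siNC 1 and 3 at the median, about the size of the ratio between siPiezo1 3 and siPiezo1 1.

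In siNC 2, the library with the highest mitosis sum, the summed markers of neutrophils and of their progenitors were also at their highest. So was every other marker sum except that of macrophages. The 12 neutrophil markers summed to 890, 4111 and 959 CPM in siNC 1, 2 and 3. In siPiezo1 1, 2 and 3 the sums were 916, 951 and 1018 CPM. Highest in siNC 2 were 10 of the 12, among them the surface gene Ly6g, at or under 0.371 CPM in every library. Csf3r went the other way, with 58.7 CPM in siNC 2 and 100 to 132 CPM in the others. Retnlg was at 0 in siNC 2 and at or under 0.822 CPM elsewhere. The 10 granulocyte-monocyte progenitor markers summed to 24.9, 445 and 23.0 CPM in siNC and to 23.6, 19.8 and 50.4 CPM in siPiezo1, and 9 of the 10 were highest in siNC 2. Mpo, the myeloperoxidase gene, led them with 153 CPM in siNC 2, 21.0 CPM in siPiezo1 3 and 4.21 to 10.3 CPM in the rest, while Flt3 was at or near 0 in every library. In siPiezo1 3 the progenitor sum of 50.4 CPM and the mitosis sum of 1478 CPM were both the highest after siNC 2. In siPiezo1 2 the progenitor sum of 19.8 CPM was the lowest of the 6, and the mitosis sum of 1269 CPM lay above those of siNC 1 and 3. The 10 macrophage markers summed to 28780 CPM in siNC 2 and to 35120 to 38090 CPM in the others. Lyz2 alone held 20620 CPM in siNC 2 and 24110 to 26820 CPM in the others. Cd14 and Cd63 were the 2 markers highest in siNC 2, at 1263 and 769 CPM. Itgam, at 664 CPM there, was exceeded only in siPiezo1 1, at 1394 CPM. Lymphocyte markers summed to 1.91 to 4.62 CPM, dendritic cell markers to 3.99 to 13.3 CPM, erythroid markers to 0.479 to 13.3 CPM and fibroblast markers to 9.42 to 25.6 CPM. The upper value of each range was that of siNC 2. Of their single genes, 2 of 9, 3 of 8, 1 of 8 and 3 of 8 were highest in siNC 2. Among these were the erythroid marker Car2 at 8.11 CPM and the fibroblast marker Lum at 10.07 CPM. Cd3e, Cd3g, Ncr1, Siglech, Cd209a and Car1 were at 0 throughout. The part of neutrophil and progenitor RNA in the mitosis gene levels was not tested.

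**Figure D4:**
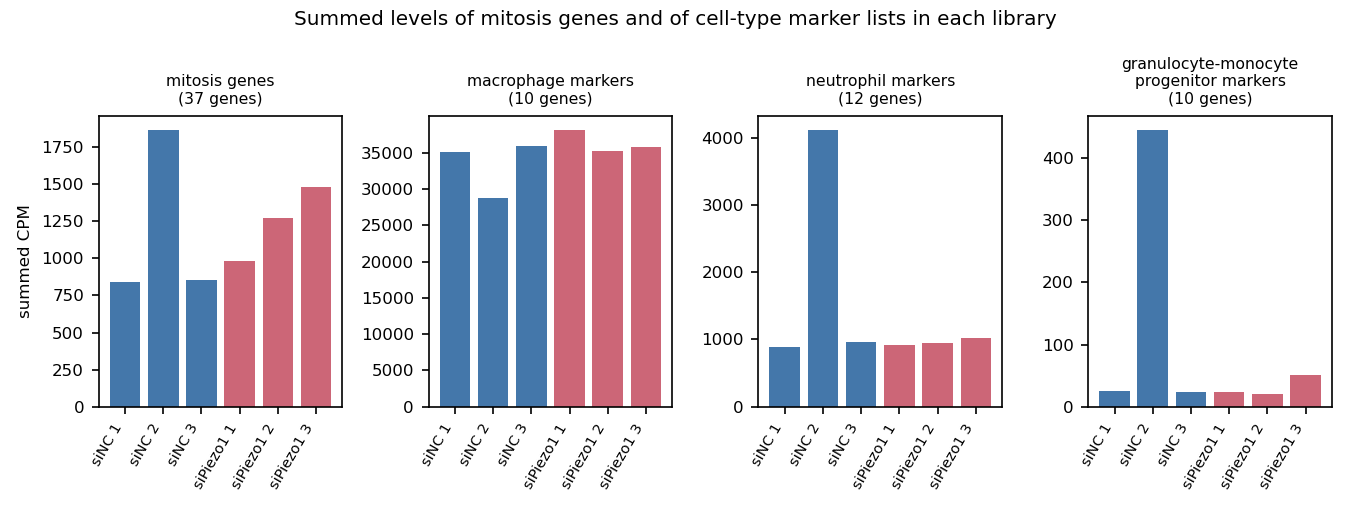
Summed CPM of the 37 mitosis genes and of 3 cell-type marker lists in each library (siNC blue, siPiezo1 red, 1 bar a library, axes from 0). In siNC 2 the mitosis, neutrophil and progenitor sums are the highest and the macrophage sum of 28780 CPM the lowest, while the neutrophil sums of the siPiezo1 libraries, 916 to 1018 CPM, are near those of siNC 1 and 3, and the progenitor sum of siPiezo1 3 is 50.4 CPM.

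Genes of this program share promoter elements that are known to act together: the cell cycle genes homology region (CHR), through which the DREAM complex silences such genes in resting cells and the MYB-MuvB complex activates them in G2 and M phase, and the CCAAT box, which binds NF-Y. Promoter windows of RefSeq (GRCm38.p6, 250 bases before to 50 bases after the start) were held for 32 of the 37 genes, in 34 windows. Entries for Tpx2, Foxm1, Aurkb, Kif20a and Ccna2 were not held. The CHR was searched as TTTGAA and TTCGAA and the CCAAT box as CCAAT, on both strands, and matches of the 2 motifs may share end bases. A CHR match was found in 28 of the 34 windows (82.4%), a CCAAT match in 27 (79.4%) and both in 25 (73.5%). Of all 32851 windows of the same length, 19.2% held a CHR match, 37.4% a CCAAT match and 7.52% both. Of 64 CCAAT matches, 62 lay before the start, at a median position of -69.5, whereas 19 of 38 CHR matches lay before it and 19 after, 27 of them within 50 bases. In 24 of the 34 windows the bases shortly after the RefSeq start occur in a GENCODE M21 transcript of the gene, so positions hold for the RefSeq start alone. A match describes the letters and is no evidence that a factor binds there.

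The promoters of Bub1b, Racgap1, Cdc20, Hmmr and Plk1 are shown because these genes hold both elements in their window and had the smallest p of such genes in the fit of all 6 libraries. Each stretch runs 5′ to 3′ on the gene's strand, from 250 bases before to 30 bases after the RefSeq start, in GRCm38.p6 coordinates, and capitals mark the CHR and CCAAT matches.
Bub1b (chr2:118597961-118598240, plus strand): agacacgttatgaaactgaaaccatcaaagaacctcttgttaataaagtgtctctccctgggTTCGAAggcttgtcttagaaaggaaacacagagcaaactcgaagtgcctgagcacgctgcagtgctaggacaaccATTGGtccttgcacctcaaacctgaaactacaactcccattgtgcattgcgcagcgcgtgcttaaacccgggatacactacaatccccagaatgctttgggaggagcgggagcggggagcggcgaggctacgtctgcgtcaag
Racgap1 (chr15:99651627-99651906, minus strand): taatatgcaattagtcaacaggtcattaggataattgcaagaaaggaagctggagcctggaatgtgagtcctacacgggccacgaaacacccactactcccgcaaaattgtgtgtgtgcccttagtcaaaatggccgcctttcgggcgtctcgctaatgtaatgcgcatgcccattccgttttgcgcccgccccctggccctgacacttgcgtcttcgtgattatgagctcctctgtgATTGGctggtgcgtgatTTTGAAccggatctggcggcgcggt
Cdc20 (chr4:118437314-118437593, minus strand): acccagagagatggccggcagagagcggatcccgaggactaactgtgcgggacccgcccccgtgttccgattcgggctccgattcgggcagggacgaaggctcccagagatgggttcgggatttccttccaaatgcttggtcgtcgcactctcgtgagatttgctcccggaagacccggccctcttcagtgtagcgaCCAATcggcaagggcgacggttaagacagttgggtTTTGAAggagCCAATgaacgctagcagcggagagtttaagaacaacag
Hmmr (chr11:40733408-40733687, minus strand): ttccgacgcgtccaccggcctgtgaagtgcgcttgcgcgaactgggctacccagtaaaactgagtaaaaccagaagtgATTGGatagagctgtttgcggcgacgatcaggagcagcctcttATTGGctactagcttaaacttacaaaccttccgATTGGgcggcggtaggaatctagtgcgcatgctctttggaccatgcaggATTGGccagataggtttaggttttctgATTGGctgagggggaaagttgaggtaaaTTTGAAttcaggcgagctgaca
Plk1 (chr7:122159185-122159464, plus strand): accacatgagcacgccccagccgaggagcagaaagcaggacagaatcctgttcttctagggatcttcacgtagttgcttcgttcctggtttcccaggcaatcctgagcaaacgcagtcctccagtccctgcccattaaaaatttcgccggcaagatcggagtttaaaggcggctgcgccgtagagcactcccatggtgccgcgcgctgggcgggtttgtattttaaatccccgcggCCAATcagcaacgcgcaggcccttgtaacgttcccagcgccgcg
In Cdc20 a CCAAT box lies on either side of the CHR, which begins 18 bases before the start. Hmmr carries 5 inverted CCAAT boxes (ATTGG) ahead of a CHR that begins 9 bases after the start. The bases shortly after this start were not found in a GENCODE M21 transcript of Hmmr. Racgap1 has a pair across its start, an ATTGG that begins 12 bases before and a TTTGAA that begins 6 bases after the start. In Bub1b the capitals mark a TTCGAA that begins 188 bases before the start, and a TTTGAA begins 41 bases after it, beyond the printed stretch. The CHR of Plk1 likewise begins 31 bases after the start, so its printed stretch shows the CCAAT box alone.

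Among the cyclins, CDK1 and their regulator, the list divided into 4 genes of like pattern and Foxm1. Ccna2 encodes cyclin A2, the partner of CDK2 in S phase and of CDK1 in G2. Its levels were 26, 58.5 and 23.5 CPM in siNC 1, 2 and 3 and 32.4, 40.5 and 50.2 CPM in siPiezo1 1, 2 and 3. The siPiezo1 libraries were all above siNC 1 and 3 and below siNC 2, with a log2 fold change of 0.19 ± 0.37 (SE) on 6 libraries and 0.73 ± 0.18 without siNC 2. Ccnb1, the cyclin that activates CDK1 at mitotic entry, had 22.7, 46.03 and 21.4 CPM in siNC 1, 2 and 3 against 26.9, 31.8 and 42.3 CPM in siPiezo1 1, 2 and 3. The arrangement of the libraries was that of Ccna2, and the log2 fold change was 0.16 ± 0.33 and, without siNC 2, 0.61 ± 0.19. Ccnb1 has near-identical copies, among them Ccnb1-ps with 99.2% identity over 1287 bases, so its counts may be shared with theirs. Ccnb1-ps itself held 1.29 CPM on average, scaled by library totals alone. Ccnb2, the second B-type cyclin, kept the same order of libraries, with log2 fold changes of 0.16 ± 0.36 and 0.64 ± 0.22. Cdk1, the kinase itself, was measured at 18.3, 50.2 and 23.5 CPM in siNC 1, 2 and 3, and at 20.2, 31.7 and 36.7 CPM in siPiezo1 1, 2 and 3. Here siPiezo1 1 lay between siNC 1 and siNC 3, so the groups overlapped even without siNC 2, and the log2 fold changes were -0.056 ± 0.40 and 0.50 ± 0.28.

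Foxm1, which encodes a forkhead transcription factor of G2 and M phase genes, lay on the other side of 0. Its levels were 9.85, 16.5 and 17.97 CPM in siNC 1, 2 and 3 and 6.55, 6.85 and 15.5 CPM in siPiezo1 1, 2 and 3. The siPiezo1 1 and 2 libraries were below all siNC libraries, while siPiezo1 3 lay among them, and siNC 3 rather than siNC 2 was the highest. Its log2 fold change of -0.61 ± 0.40 (SE) was the lowest and had the smallest p of the 37 genes on 6 libraries, with an adjusted p of 0.978 by edgeR's quasi-likelihood test. Without siNC 2 it was -0.53 ± 0.52 (adjusted p = 0.754, edgeR). Foxm1 was 1 of 2 mitosis genes below 0 in that fit, with Pttg1.

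The mitotic kinases and the Aurora activator Tpx2 were close to 0 on 6 libraries, with a median log2 fold change of 0.034 over 4 genes, and had a median of 0.67 without siNC 2. Plk1, the Polo-like kinase of centrosome maturation and mitotic entry, stood at 12.8, 36.6 and 15.1 CPM in siNC 1, 2 and 3, and at 19.7, 24.3 and 30.6 CPM in siPiezo1 1, 2 and 3. Each siPiezo1 library was above siNC 1 and 3, and none reached siNC 2. The log2 fold change of Plk1 was 0.21 ± 0.41 on 6 libraries and 0.83 ± 0.19 without siNC 2 (SE; adjusted p = 0.0947, edgeR), the largest of the 37 in that fit. Aurka encodes the Aurora kinase of the spindle poles. It had 10.8, 33.9 and 11.2 CPM in siNC 1, 2 and 3 and 14.6, 20.1 and 21.02 CPM in siPiezo1 1, 2 and 3. Leaving out siNC 2 moved its log2 fold change from -0.0081 ± 0.46 to 0.75 ± 0.18 (adjusted p = 0.0947, edgeR), and siNC 2 held 3.08-fold the level of siNC 1 and 3. Tpx2, the spindle assembly factor that activates Aurora A, showed 23.99, 65.7 and 26.4 CPM in siNC 1, 2 and 3 and 31.8, 36.6 and 44.96 CPM in siPiezo1 1, 2 and 3. It followed the order of Aurka, with log2 fold changes of -0.035 ± 0.39 and 0.58 ± 0.15. Aurkb, the kinase of the chromosomal passenger complex, had a siPiezo1 1 level of 11.6 CPM below the 11.9 and 12.4 CPM of siNC 1 and 3. Its siPiezo1 2 and 3 levels of 17.4 and 20.8 CPM were above them, and its log2 fold changes were 0.075 ± 0.32 and 0.45 ± 0.23.

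Aurkb acts with Birc5 (survivin) and Cdca8 (borealin), the targeting subunits of the passenger complex, and these 2 genes had, without siNC 2, the smallest median of the role groups with more than 1 member, 0.34. Birc5 had 15.9, 29.5 and 13.5 CPM in siNC 1, 2 and 3 and 14.8, 20.6 and 22.7 CPM in siPiezo1 1, 2 and 3. In both Birc5 and Aurkb siPiezo1 1 lay within or below the range of siNC 1 and 3, so the groups overlapped without siNC 2. The log2 fold changes were -0.020 ± 0.32 for Birc5 and -0.11 ± 0.30 for Cdca8 on 6 libraries, and 0.39 ± 0.19 and 0.28 ± 0.17 without siNC 2.

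The spindle checkpoint genes gave the highest median of the role groups without siNC 2, 0.78 over 3 genes, and 0.21 with it. Bub1b, which encodes the checkpoint protein BUBR1, stood at 31.5, 53.2 and 31.2 CPM in siNC 1, 2 and 3, and at 39.8, 45.5 and 56.3 CPM in siPiezo1 1, 2 and 3. Bub1b and Kif20a were the 2 genes with their highest level in siPiezo1 3, and siNC 1 and 3 were the lowest libraries. The fitted log2 fold change was 0.29 ± 0.24 on 6 libraries (SE; adjusted p = 0.988, edgeR) and 0.59 ± 0.14 without siNC 2 (adjusted p = 0.103, edgeR). Bub1, the checkpoint kinase that marks kinetochores, had 12.96, 40.3 and 19.8 CPM in siNC 1, 2 and 3 and 19.9, 26.8 and 37.7 CPM in siPiezo1 1, 2 and 3. SiPiezo1 1 and siNC 3 were nearly equal, and the wide spread left an SE of 0.34 around the log2 fold change of 0.78 without siNC 2. Ttk, the MPS1 kinase at the head of the checkpoint, was among the least abundant genes per kilobase, at 1.004 CPM per kb over siNC 1 and 3. Its levels were 5.27, 13.7 and 4.61 CPM in siNC 1, 2 and 3 and 5.996, 8.02 and 12 CPM in siPiezo1 1, 2 and 3. The siPiezo1 libraries again lay between, with log2 fold changes of 0.14 ± 0.47 and 0.81 ± 0.29.

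Of the partners and target of the anaphase-promoting complex, Cdc20 and Ube2c shared the pattern of the kinases and Pttg1 did not. Cdc20, the activator that the checkpoint holds back, stood at 10.6, 25.2 and 10.6 CPM in siNC 1, 2 and 3, and at 16.1, 17.1 and 20.2 CPM in siPiezo1 1, 2 and 3. The siNC 1 and 3 values were nearly equal, the siPiezo1 values were all above them, and siNC 2 was the highest. Its log2 fold change was 0.21 ± 0.36 (SE) on 6 libraries and 0.75 ± 0.14 without siNC 2, with an adjusted p of 0.0598 by edgeR's quasi-likelihood test, the smallest of the 37. Ube2c, the ubiquitin-conjugating enzyme of the complex, showed 13.1, 38.7 and 11.9 CPM in siNC 1, 2 and 3 and 13.1, 22.9 and 24.6 CPM in siPiezo1 1, 2 and 3. It had the widest gap between siNC 2 and its fellow controls, and siPiezo1 1 did not exceed siNC 1, with log2 fold changes of -0.075 ± 0.49 and 0.69 ± 0.28. Pttg1 encodes securin, the inhibitor of separase that is destroyed at anaphase. It had 26.4, 20.6 and 26.9 CPM in siNC 1, 2 and 3 and 24.5, 27 and 26.9 CPM in siPiezo1 1, 2 and 3. Pttg1 was the only gene of the 37 with its lowest level in siNC 2, and the other 5 libraries lay close together. The difference on the log2 scale was 0.087 ± 0.13 (SE; adjusted p = 0.991, edgeR) and -0.029 ± 0.099 without siNC 2, with the smallest SE of the 37 in both fits.

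**Figure D5:**
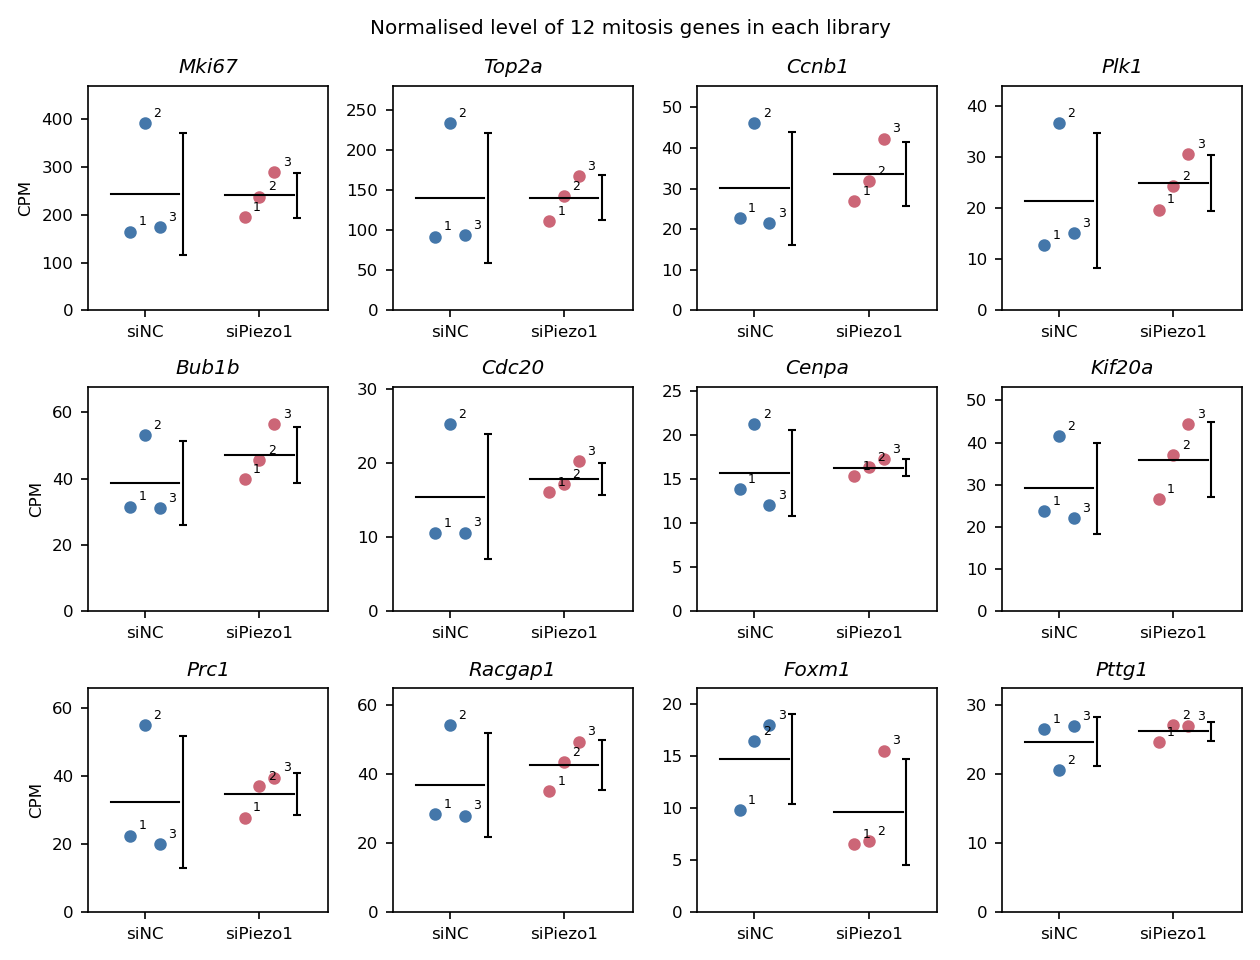
CPM of 12 mitosis genes in each library, with points numbered by replicate, a horizontal line at each group's mean and a bar of 1 SD on either side of it (n = 3). In 10 of the panels siNC 2 stands well above siNC 1 and 3, for Mki67 at 391 against 165 and 174 CPM, and the siPiezo1 points lie between or near siNC 2, while Foxm1 and Pttg1 show other orders.

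At the centromere and kinetochore, 6 genes had a median log2 fold change of 0.067 on 6 libraries and of 0.48 without siNC 2. Nuf2, a subunit of the NDC80 complex that grips microtubules, was measured at 10.4, 28.8 and 10.7 CPM in siNC 1, 2 and 3, and at 13.9, 18.8 and 20.5 CPM in siPiezo1 1, 2 and 3. All siPiezo1 libraries were above siNC 1 and 3, and the log2 fold change went from 0.095 ± 0.42 to 0.75 ± 0.18 when siNC 2 was left out. Its partner Ndc80 had 10.2, 18.3 and 9.51 CPM in siNC 1, 2 and 3 and 8.69, 13.3 and 16.6 CPM in siPiezo1 1, 2 and 3. SiPiezo1 1 was the lowest of all 6 libraries here, so the groups overlapped in both comparisons, with log2 fold changes of 0.018 ± 0.33 and 0.38 ± 0.26. Spc25, the third subunit of that complex on the list, also had siPiezo1 1 below siNC 1, at 7.55 and 8.15 CPM, with log2 fold changes of -0.095 ± 0.40 and 0.45 ± 0.23. Cenpa, the histone H3 variant that marks centromeres, showed 13.9, 21.2 and 12.1 CPM in siNC 1, 2 and 3 and 15.3, 16.4 and 17.3 CPM in siPiezo1 1, 2 and 3. The siPiezo1 libraries were tightly grouped and just above siNC 1, and without siNC 2 the log2 fold change was 0.33 ± 0.13. Cenpe, a kinetochore kinesin, and Cenpf, a kinetochore protein of G2 and M phase, had log2 fold changes of 0.54 ± 0.18 and 0.51 ± 0.19 without siNC 2, and of 0.10 ± 0.32 and 0.081 ± 0.32 with it.

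The kinesin motors and spindle proteins, 6 genes, had a median of 0.12 on 6 libraries and of 0.55 without siNC 2. Kif20a, the kinesin MKLP2 that carries the passenger complex to the central spindle, stood at 23.7, 41.6 and 22.2 CPM in siNC 1, 2 and 3, and at 26.7, 36.95 and 44.3 CPM in siPiezo1 1, 2 and 3. The siPiezo1 3 library was the highest, siNC 2 came next, and siNC 1 and 3 were the lowest. The log2 fold change was 0.30 ± 0.29 on 6 libraries (SE; adjusted p = 0.991, edgeR), the highest of the 37, and 0.65 ± 0.21 without siNC 2. Of its exon bases, 29.3% overlap Cdc23 on the opposite strand, and whether counting used the strand is not given in the sources used here, so reads of the 2 genes may be mixed. Nusap1, a microtubule-bundling spindle protein, had 16.1, 30.1 and 14.9 CPM in siNC 1, 2 and 3 and 19.2, 24.9 and 27.2 CPM in siPiezo1 1, 2 and 3. The siPiezo1 libraries lay between siNC 2 and the other controls, with log2 fold changes of 0.22 ± 0.29 (adjusted p = 0.991, edgeR) and 0.61 ± 0.16. Hmmr, a spindle pole protein that works with Tpx2, and Kif23, the kinesin of centralspindlin, followed the same order and had 0.52 ± 0.16 and 0.57 ± 0.16 without siNC 2. Kif11, the motor that separates spindle poles, and Kif2c, which depolymerises microtubules, had siPiezo1 1 within the range of siNC 1 and 3 and log2 fold changes of 0.49 ± 0.22 and 0.42 ± 0.21. On 6 libraries these 4 genes lay between -0.029 and 0.15.

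The 4 cytokinesis genes all lay higher in each siPiezo1 library than in siNC 1 and 3. Prc1, which bundles the microtubules of the central spindle, had 22.5, 54.8 and 19.9 CPM in siNC 1, 2 and 3 and 27.8, 36.98 and 39.5 CPM in siPiezo1 1, 2 and 3. Only siNC 2 exceeded the siPiezo1 libraries, and the log2 fold change was 0.10 ± 0.39 with it and 0.71 ± 0.16 without it (SE; adjusted p = 0.0848, edgeR). Prc1 overlaps Rccd1 on the opposite strand over 11.1% of its exon bases. Racgap1, the GTPase-activating subunit of centralspindlin, stood at 28.5, 54.1 and 27.99 CPM in siNC 1, 2 and 3, and at 35.2, 43.4 and 49.4 CPM in siPiezo1 1, 2 and 3. It showed the same order with less spread, and was among the 6 smallest p of the 37 in both fits, at 0.21 ± 0.28 (adjusted p = 0.991, edgeR) and 0.59 ± 0.14 (adjusted p = 0.0953, edgeR). Ect2, the RhoA exchange factor that Racgap1 recruits, had 12.8, 37.4 and 14.8 CPM in siNC 1, 2 and 3 and 18.5, 22.5 and 22.6 CPM in siPiezo1 1, 2 and 3. Its log2 fold change changed sign with siNC 2, from -0.033 ± 0.40 to 0.62 ± 0.14 without it (adjusted p = 0.0907, edgeR). Anln, the scaffold anillin of the contractile ring, had log2 fold changes of 0.21 ± 0.35 and 0.69 ± 0.22.

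Mki67 and Top2a were the most abundant of the 37 genes in CPM. Mki67 encodes Ki-67, the proliferation antigen that coats mitotic chromosomes. It was measured at 165, 391 and 174 CPM in siNC 1, 2 and 3, and at 195, 238 and 290 CPM in siPiezo1 1, 2 and 3. All siPiezo1 libraries exceeded siNC 1 and 3, siNC 2 exceeded them all, and the log2 fold change was -0.014 ± 0.35 on 6 libraries and 0.51 ± 0.17 without siNC 2. Top2a, the topoisomerase that untangles sister chromatids, had 91.9, 233 and 94.3 CPM in siNC 1, 2 and 3 and 111, 142 and 168 CPM in siPiezo1 1, 2 and 3. Its libraries kept the order of Mki67, with log2 fold changes of 0.0073 ± 0.38 and 0.59 ± 0.18. Ncapg, a condensin subunit, had 0.017 ± 0.40 and 0.63 ± 0.18, with 13.4% of its exon bases overlapped by Lcorl on the opposite strand. Cdca3, which promotes mitotic entry as part of a ubiquitin ligase, had 0.11 ± 0.37 and 0.59 ± 0.24. Per length of exon, the mean over siNC 1 and 3 was highest for Mki67 (16.8 CPM per kb), Pttg1 (13.3) and Top2a (10.3), lowest for Cenpf (0.973) and Ttk (1.004), and 3.82 CPM per kb at the median of the 37.

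A wider list of 119 further mitosis genes also lay higher without siNC 2, with a smaller median. On 6 libraries edgeR called 0 of 119, against 0% of all tested genes higher and 0.00627% lower. Of the 119, 61 lay above 0, with a median log2 fold change of 0.015. At an unadjusted p under 0.05 none was higher and 1 lower, against 2.52% and 2.41% of all tested genes. That gene was Ckap4, which encodes a membrane protein of the endoplasmic reticulum although it was listed under cytokinesis. It had 17.8, 45.6 and 18.4 CPM in siNC 1, 2 and 3. In siPiezo1 1, 2 and 3 it had 15.3, 13.02 and 14.1 CPM. The siPiezo1 libraries were below all siNC libraries, and the log2 fold change was -0.95 ± 0.37 (SE; adjusted p = 0.978, edgeR). Cenpm, a centromere protein, had the next smallest p, with a log2 fold change of 1.09 ± 0.48 at levels of 0.494 to 2.27 CPM. Without siNC 2, 97 of 119 lay above 0 with a median of 0.33. At an unadjusted p under 0.05, 46 were higher and 4 lower, against 7.69% and 6.66% of all tested genes. EdgeR called 1 of the 119, as higher, against 0.664% of all tested genes higher and 0.451% lower. This was Zwint, which helps recruit checkpoint proteins to kinetochores. Zwint stood at 73.2, 109 and 72.8 CPM in siNC 1, 2 and 3, and at 97, 98.98 and 106 CPM in siPiezo1 1, 2 and 3. Its siPiezo1 libraries were close together and above siNC 1 and 3, and the log2 fold change without siNC 2 was 0.46 ± 0.068 (adjusted p = 0.0240, edgeR), against 0.25 ± 0.17 on 6 libraries. The next was the condensin gene Ncapd3, at 0.50 ± 0.10 (adjusted p = 0.0655, edgeR).

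Within the wider list, without siNC 2, the median log2 fold change was 0.50 for 16 kinases, phosphatases and entry regulators, 0.47 for 23 centromere and kinetochore genes, 0.47 for 19 kinesins and spindle proteins, 0.45 for 7 condensin genes and 0.35 for 10 checkpoint genes. It was -3.2e-04 for 14 genes of the anaphase-promoting complex and its direct regulators, 7 of them above 0, and 0.019 for 12 transcriptional regulators, 7 of them above 0. For 10 genes of the passenger complex and cohesion it was 0.23, all 10 above 0. For 8 further genes listed under cytokinesis it was 0.19, with 4 above and 4 below 0. The 4 below included Ckap4, the gene of the endoplasmic reticulum protein, at -0.35. The differences between role groups were not tested.

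The DNA replication genes, 40 genes of S phase, precede mitosis in the cell cycle and were read from the same fits. On 6 libraries edgeR called 0 of 40, against 0% of all tested genes higher and 0.00627% lower, with 14 above 0 and a median of -0.059. At an unadjusted p under 0.05 the count was 0, against 2.52% of all tested genes higher and 2.41% lower. The smallest p there were those of Rfc2, a subunit of the clamp loader, at 0.14 ± 0.073 (SE), and Gins3, a subunit of the helicase complex, at 0.38 ± 0.29. Without siNC 2 all 40 lay above 0, with a median of 0.35. DESeq2 called 7 higher and 0 lower, against 3.79% and 2.93% of all tested genes. EdgeR called 0 of 40, against 0.664% of all tested genes higher and 0.451% lower. At an unadjusted p under 0.05 edgeR placed 12 higher and 0 lower, against 7.69% and 6.66% of all tested genes. Mcm3, a subunit of the replicative helicase, had the smallest p there, at 45.3, 88.1 and 44.8 CPM in siNC 1, 2 and 3, and at 60.1, 61.2 and 72.4 CPM in siPiezo1 1, 2 and 3. Its siPiezo1 libraries lay above siNC 1 and 3, with a log2 fold change of 0.52 ± 0.098 (adjusted p = 0.0574, edgeR). Clspn, which encodes the replication checkpoint mediator claspin, came next at 0.70 ± 0.18 (adjusted p = 0.109, edgeR). The siNC 2 library exceeded the mean of siNC 1 and 3 in 36 of 37 mitosis genes, with a median log2 ratio of 1.12. It did so in 106 of 119 further mitosis genes, with 0.76, and in 39 of 40 replication genes, with 1.01. The share of all tested genes above that mean was not counted.

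Ccnd1, the G1 cyclin of the study's title, had another order of libraries than the mitosis genes. Its levels were 29.1, 53.8 and 30.8 CPM in siNC 1, 2 and 3 against 13.8, 18.5 and 14.2 CPM in siPiezo1 1, 2 and 3. Every siPiezo1 library was below every siNC library, and siNC 2 was again the highest. The log2 fold change was -1.29 ± 0.27 on 6 libraries (SE; adjusted p = 0.744, edgeR) and -0.95 ± 0.14 without siNC 2 (adjusted p = 0.0267, edgeR). DESeq2 on the same 6 libraries called Ccnd1 lower (adjusted p = 0.00269), so that call depended on the tool. In the fit without siNC 2, 35 of 37 mitosis genes lay on the other side of 0.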

How the data were processed

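Poly(A) RNA of 6 BMDM libraries was sequenced as strand-marked paired ends, per the labels' protocols. Per the submitters' processing notes, cutadapt 1.9, HISAT2 2.0.4, StringTie 1.3.4d, DESeq2 and edgeR were used with build GRCm39. Neither the annotation release nor each tool's role is given, and strand use in counting is not given in the sources used here. As the files show, the authors deposited whole-number estimated counts per gene, unscaled, in which 1 fragment was worth about 3.73 to 3.77 counts. The design had assumed counts, and the test was kept. Identifiers were named with GENCODE M21 (GRCm38), which named 55141 of 55401.

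Samples were grouped by title. In R 4.3.3, edgeR 4.0.16 filtered genes with filterByExpr, scaled libraries by TMM (factors 0.988 to 1.028) and tested all 15959 kept genes by the quasi-likelihood test with robust dispersions, with Benjamini-Hochberg adjustment and a threshold of 0.05. The SE is the absolute log2 fold change over the root of F. CPM per kb used the exon length of GENCODE M21. DESeq2 1.42.0, limma-voom (limma 3.58.1), other scalings and filters, counts divided by 4, a replicate block and leaving out each library were alternatives. The edgeR test was also run on simulated counts with the spread of all 6 libraries. With 3 against 3 libraries it recovered 11.9% of 1.5-fold and 35.8% of 2-fold changes. With 2 siNC against 3 siPiezo1 libraries it recovered 0% and 23.9%, but at a spread that still included siNC 2. These 2 shares therefore do not describe the fit without siNC 2. With all 6 libraries, a count of 0 past the threshold therefore does not show that changes of such size were absent. The share recovered at the spread of the fit without siNC 2 was not measured, so a count of 0 there does not show it either.

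The 37 genes and all lists were chosen with earlier results of these data known. Every listed gene could be named. Full test values were given for the 6 genes with the smallest p with all libraries and the 6 without siNC 2. From other lists, genes past the threshold and the 2 with the smallest p in each fit were named. Ccnd1, Piezo1 and markers were added. Promoters were shown for up to 5 genes with both motifs, by smallest p with all libraries.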

Additional observations from a re-analysis of the deposited data

How the results depend on the processing

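The count of 0 mitosis genes past the threshold held in every fit except DESeq2 without siNC 2, which called 18, and it was 0 in each edgeR fit that left out 1 library. Over all alternatives, the adjusted p ran from 0.000190 to 1 for Cdc20, 0.00273 to 1 for Prc1, 0.00387 to 1 for Ect2, 0.00333 to 1 for Plk1, 0.00554 to 1 for Aurka and 0.00655 to 1 for Racgap1, with DESeq2 without siNC 2 the lowest. Of the genes of the wider lists, DESeq2 without siNC 2 called 20 higher and 1 lower of the further mitosis genes and 7 higher of the replication genes. Limma-voom, library totals alone and DESeq2's size factors without siNC 2 each called 1 further mitosis gene higher, and leaving out 1 library gave 0 to 1. Over all tested genes, against 0 higher and 1 lower with 6 libraries, library totals alone and the replicate block each gave 0 lower, DESeq2 46 higher and 42 lower, and library quality weights 1 higher and 3 lower. Leaving out 1 library gave 0 to 106 higher and 0 to 72 lower. Without siNC 2, the higher and lower counts were 605 and 468 with DESeq2, 50 and 65 with limma-voom, 112 and 74 with library totals alone, and 106 and 72 with DESeq2's size factors. The number of mitosis genes with no overlap between groups was 0 to 25 higher and 0 to 1 lower when 1 library was left out. The median log2 fold change of the 37 genes was 0.599 with library totals alone without siNC 2, and on 6 libraries it was 0.49 with library quality weights and 0.18 with the replicate block, each with 35 of 37 above 0. Settings without siNC 2, other than the edgeR fit, were chosen after seeing the data. The cause of these differences between settings was not tested.

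Signs of single genes turned as follows, always on the log2 scale. With library totals alone, Top2a -0.013 and Ncapg -0.0038 were below 0, and so was Top2a, at -0.0014, with a minimum of 50 counts in 3 libraries. Limma-voom turned 7 genes, Cdk1 0.0051, Aurka 0.15, Tpx2 0.077, Ube2c 0.050, Birc5 0.015, Ect2 0.095 and Mki67 0.086. Library quality weights turned 11, Cdk1 0.37, Aurka 0.62, Tpx2 0.47, Ube2c 0.53, Pttg1 -0.00089, Spc25 0.36, Birc5 0.31, Cdca8 0.20, Kif2c 0.30, Ect2 0.51 and Mki67 0.41. DESeq2 without siNC 2 turned 11, Cdk1 0.50, Aurka 0.75, Tpx2 0.58, Ube2c 0.69, Pttg1 -0.029, Spc25 0.45, Birc5 0.39, Cdca8 0.28, Kif2c 0.42, Ect2 0.62 and Mki67 0.51. The replicate numbers showed no sign of pairing the libraries. Same-numbered libraries correlated at -0.16 to 0.037 in their deviations from the group means, and 0 libraries correlated best with their own number. With 3 libraries a group and siNC 2 standing apart, this cannot exclude a pairing. The fit with the replicate number as a block turned 9 genes, Cdk1 0.041, Aurka 0.20, Tpx2 0.12, Ube2c 0.089, Spc25 0.015, Birc5 0.039, Kif2c 0.031, Ect2 0.14 and Mki67 0.091, and called 0 of the 37. Leaving out each library in turn, the fold change ran for Ccna2 -0.042 to 0.73, for Ccnb1 -0.034 to 0.61, for Ccnb2 -0.039 to 0.64, for Cdk1 -0.32 to 0.50, for Plk1 -0.056 to 0.83, for Aurka -0.28 to 0.75, for Aurkb -0.12 to 0.45, for Tpx2 -0.29 to 0.58, for Bub1 -0.097 to 0.78, for Ttk -0.16 to 0.81, for Cdc20 -0.0063 to 0.75, for Ube2c -0.36 to 0.69, for Pttg1 -0.029 to 0.16, for Cenpa -0.11 to 0.33, for Cenpe -0.13 to 0.54, for Cenpf -0.097 to 0.51, for Ndc80 -0.21 to 0.38, for Nuf2 -0.15 to 0.75, for Spc25 -0.36 to 0.45, for Birc5 -0.23 to 0.39, for Cdca8 -0.32 to 0.28, for Kif11 -0.13 to 0.49, for Kif2c -0.24 to 0.42, for Kif23 -0.13 to 0.57, for Hmmr -0.013 to 0.52, for Prc1 -0.15 to 0.71, for Anln -0.0035 to 0.69, for Ect2 -0.30 to 0.62, for Mki67 -0.23 to 0.51, for Top2a -0.22 to 0.59, for Ncapg -0.23 to 0.63 and for Cdca3 -0.13 to 0.59. Leaving out siNC 2 leaves 2 siNC libraries, whose spread then rests on 1 pair.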
